A study of Mus musculus with 15 samples.

Results

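The SLAM family receptors are 6 genes, *Slamf1*, *Slamf6*, *Slamf7*, *Cd84*, *Ly9* and *Cd48*, chosen by symbol from the 21669 genes with a symbol in an RNA-seq table of mouse B cells. The groups were naive CD43- splenic B cells (nB), B220+GL7+CD138- activated B cells (actB) and CD138+ plasmablasts (Pb). The latter were sorted after a 3-day culture of such naive B cells with LPS, IL2 and IL5, in which either the vehicle DMSO or GSK343, an inhibitor of the histone H3K27 methyltransferase EZH2, was present. All cells came from young adult female wild-type C57BL/6J mice, with 3 libraries per group. The labels of the Pb GSK343 libraries list Il6 where those of the other cultured groups list Il5, although their treatment protocol and the study's methods give IL5 for all of these cultures. Which is right was not settled, and if the label holds, an effect of the cytokine and of GSK343 cannot be told apart in these libraries. The nB libraries labelled replicates 1 and 2 differed by less than the sampling noise and were counted as 1 sample, which left n = 2 for nB and n = 3 for each other group.

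SLAM receptors are surface proteins of the immunoglobulin superfamily on blood cells. Most bind their own kind on a neighbouring cell, whereas CD48 is a lipid-anchored ligand of CD2 and CD244. The tails of the transmembrane members carry tyrosine motifs that, once phosphorylated, recruit the small adaptors SAP and EAT-2, which pass the signal to Src family kinases, or inhibitory phosphatases in their place. In the B lineage they are known for adhesion to T cells in germinal centres and as surface markers of plasma cells.

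The 6 genes lie side by side on chromosome 1 in a block of 360.3 kb (mm9, chr1:173518755-173879083). In the order along the chromosome they are *Ly9* and *Slamf7* on the minus strand, then *Cd48*, *Slamf1*, *Cd84* and *Slamf6* on the plus strand. *Ly9* spans chr1:173518755-173537541, *Slamf7* chr1:173562534-173579149 and *Cd48* chr1:173612140-173635389. *Slamf1* spans chr1:173697258-173731315, *Cd84* chr1:173769828-173820849 and *Slamf6* chr1:173847646-173879083. None of the 6 overlapped another gene of the GENCODE vM1 annotation. The relative *Cd244* starts 29.4 kb to the left of *Ly9*.

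RefSeq promoter windows, from 250 bases before to 50 after the start site in GRCm38.p6 (another build than the mm9 of the expression values), were present for 5 of the 6 members, all but *Ly9*. Those of *Slamf1* (chr1:171766882-171767181, plus strand), *Cd84* (chr1:171839447-171839746, plus strand) and *Slamf7* (chr1:171648950-171649249, minus strand) are shown because transcripts of the first pair fell, and those of the last rose, between actB and Pb. They are written 5′ to 3′ in the direction of the gene, with matches to any of the 6 motifs searched in capitals.
Slamf1: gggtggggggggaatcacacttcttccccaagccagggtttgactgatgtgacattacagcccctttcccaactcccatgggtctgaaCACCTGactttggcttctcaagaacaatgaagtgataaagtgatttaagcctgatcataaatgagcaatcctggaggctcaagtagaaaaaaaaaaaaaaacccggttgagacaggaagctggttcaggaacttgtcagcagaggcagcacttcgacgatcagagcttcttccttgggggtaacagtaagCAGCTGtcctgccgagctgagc
Cd84: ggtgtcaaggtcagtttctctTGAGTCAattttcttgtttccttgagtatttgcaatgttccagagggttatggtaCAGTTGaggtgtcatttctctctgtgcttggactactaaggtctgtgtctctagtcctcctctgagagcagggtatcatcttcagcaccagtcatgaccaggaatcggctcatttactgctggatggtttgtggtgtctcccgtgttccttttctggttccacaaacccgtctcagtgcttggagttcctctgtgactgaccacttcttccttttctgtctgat
Slamf7: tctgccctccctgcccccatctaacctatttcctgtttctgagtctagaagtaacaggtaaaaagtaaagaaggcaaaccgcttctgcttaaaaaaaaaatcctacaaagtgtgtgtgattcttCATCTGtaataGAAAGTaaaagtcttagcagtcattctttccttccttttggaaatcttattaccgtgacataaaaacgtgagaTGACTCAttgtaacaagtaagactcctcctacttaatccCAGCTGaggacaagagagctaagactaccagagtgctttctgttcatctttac

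The motifs were searched on both strands, and the share of all 32851 windows that hold each is given. GAAAGT, a core found in Blimp-1 and interferon response sites, was present in *Slamf7* alone of the 5 members and in 14.3% of all windows. TGANTCA, the AP-1 site, was present in *Slamf7* and *Cd84* and in 7.81% of all windows. The E-box CANCTG was present in *Slamf1*, *Cd84*, *Slamf7* and *Slamf6* and in 51.4% of all windows. No window of the 5 held the PU.1 site GAGGAAGT (3.2% of all windows), the octamer ATTTGCAT (1.74%) or TATAAA (13.6%). No match overlapped another, and the palindrome CAGCTG was read as 1 site. *Slamf7* had the lowest GC content of the 5 windows, 39%, against a median of 52.7% over all windows. A match of letters is a description of the window and not a bound site.

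Levels are given as RPKM, reads per kilobase of gene length in a library scaled to 1000000 reads. Libraries held 19421830 to 26307413 reads, with fewer in Pb than in nB and actB, and all 6 members passed the filter on low values (1 RPKM or more in 3 or more of the deposited columns). A gene was called changed at an adjusted p under 0.05 (limma, 11299 genes tested), and fold changes are on the scale of log2(RPKM + 0.25). The labels of the cell types were set against markers. Of the 5 activated B cell markers 3 were called higher in actB DMSO than in nB, 1 lower and 1 not called. Of all genes 40.9% were called higher there and 36.3% lower. The lower marker was *Cd69*, with a mean of 62.6 RPKM in nB and 24.2 in actB DMSO. From actB to Pb all 5 of these markers fell, beside 42.4% of all genes. All 5 plasma cell markers (*Sdc1*, *Prdm1*, *Xbp1*, *Irf4*, *Jchain*) rose from actB to Pb, beside 27.3% of all genes. Their summed level was 485 to 522 RPKM in actB DMSO and 3060 to 3220 RPKM in Pb DMSO. All 7 B cell markers fell, beside the same 42.4% of all genes. The nB libraries also held RNA of other cells: the summed levels were 195 to 239 RPKM for 8 myeloid, 22.9 to 24.7 for 7 T cell and 13.9 to 14.5 for 5 NK cell markers. In the cultured groups no T cell or NK cell marker reached a mean of 1 RPKM, and the summed levels were at most 14.2, 0.952 and 2.35 RPKM. T cells, NK cells and myeloid cells carry SLAM receptors too. Their part in nB levels and in changes from nB was not tested for any gene described here. In bulk RNA, fewer cells with a transcript and less of it per cell cannot be told apart.

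The receptors took 3 courses from naive B cells to plasmablasts. *Slamf1*, *Cd84* and *Ly9* fell at each step, *Slamf7* rose in plasmablasts after a small fall on activation, and *Slamf6* rose on activation. *Cd48*, the member with the highest level in all 5 groups, passed the test in none of the comparisons, although other settings called it. The plot of RPKM by library shows these courses.

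**Figure D1:**
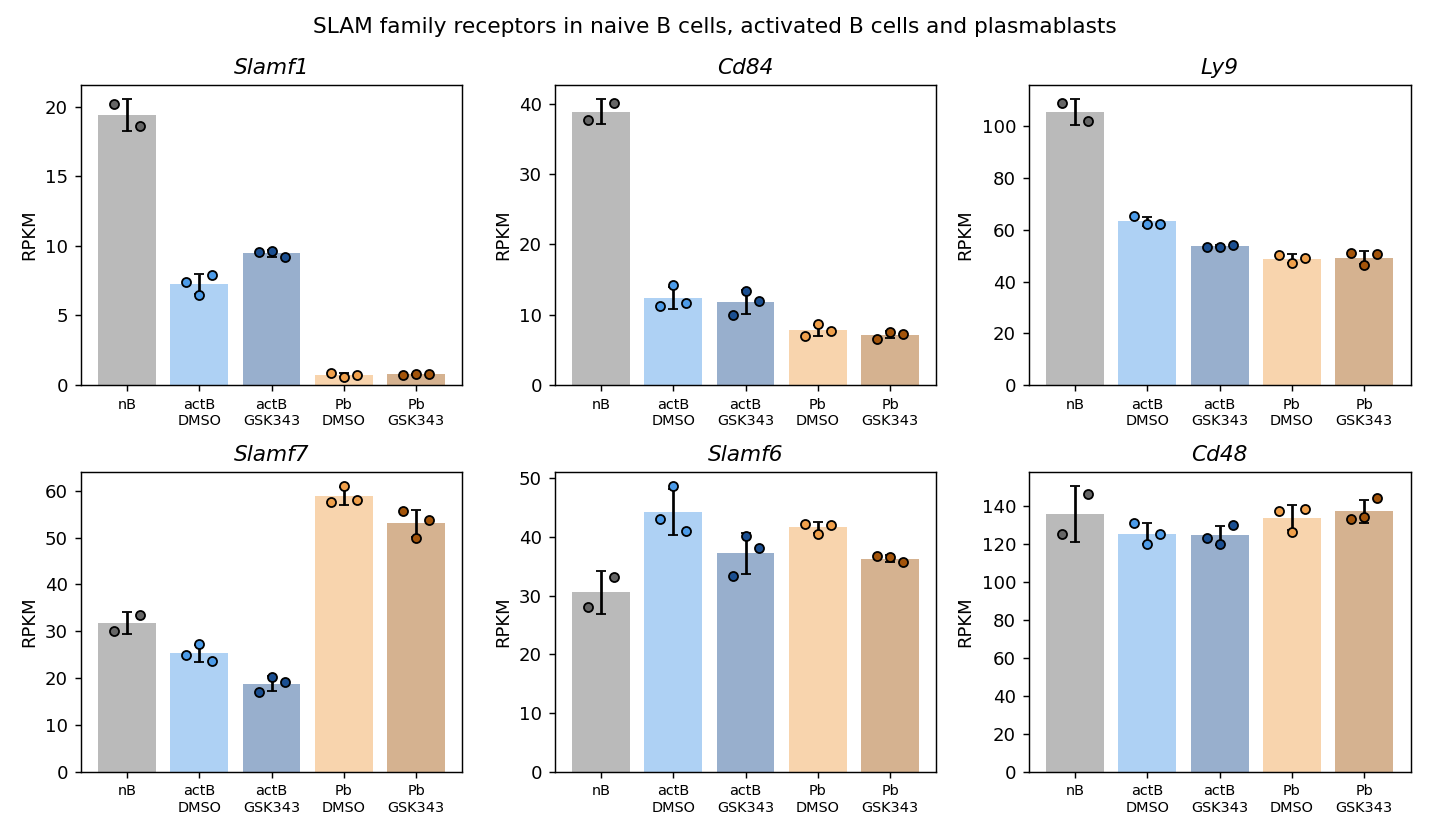
RPKM (y axis, linear from 0) of each receptor in the 5 groups. Points are libraries (n = 2 for nB, n = 3 for each other group), bars are means and error bars SD; *Slamf1* fell from a mean of 19.4 in nB to 0.729 in Pb DMSO, while *Slamf7* was highest in the Pb groups.

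*Slamf1* (CD150) binds itself on a neighbouring cell and is the founding member of the family. It was at 20.2 and 18.6 RPKM in nB, at 7.42, 6.46 and 7.88 in actB DMSO, and at 0.889, 0.55 and 0.748 in Pb DMSO. The 3 groups did not overlap, and the Pb values rest on 39 to 60 reads per library. The mean was 19.4 ± 1.14 (SD, n = 2), 7.26 ± 0.725 (SD, n = 3) and 0.729 ± 0.17 (SD, n = 3). *Slamf1* fell by 1.39 on the log2 scale from nB to actB (SE 0.128, adjusted p = 5.65e-07) and by a further 2.95 from actB to Pb (SE 0.114, adjusted p = 4.22e-10). From nB to Pb the difference was -4.34 (adjusted p = 7.23e-12), the largest of the 6 receptors.

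*Cd84* encodes another receptor that binds itself and contributes to contacts of B cells with T cells. Its libraries were at 37.6 and 40.1 RPKM in nB, 11.3, 14.2 and 11.7 in actB DMSO, and 7.03, 8.63 and 7.71 in Pb DMSO. The order nB, actB, Pb held with no overlap. The log2 fold change was -1.63 on activation (SE 0.128, adjusted p = 1.36e-07) and -0.66 from actB to Pb (SE 0.115, adjusted p = 0.000242). For *Cd84* the larger log2 step was that on activation, and for *Slamf1* that from actB to Pb.

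*Ly9* (CD229) is a self-binding receptor with a longer extracellular part than the other members. It was at 109 and 102 RPKM in nB, 65.3, 62.4 and 62.3 in actB DMSO, and 50.4, 47.1 and 49.1 in Pb DMSO. Again the groups did not overlap, but *Ly9* kept a mean of 48.9 ± 1.65 RPKM (SD, n = 3) in Pb DMSO, where *Slamf1* was at 0.729. Its log2 fold changes were -0.73 on activation (SE 0.0539, adjusted p = 7.57e-08) and -0.37 from actB to Pb (SE 0.0482, adjusted p = 1.85e-05).

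*Slamf7* (CS1, CD319) binds itself and is a surface marker of plasma cells. It was at 30.1 and 33.5 RPKM in nB, 24.9, 27.3 and 23.7 in actB DMSO, and 57.6, 61 and 58 in Pb DMSO. All Pb libraries lay above all others, and all actB DMSO libraries lay below nB. The log2 fold change was -0.33 on activation (SE 0.0829, adjusted p = 0.00301) and 1.21 from actB to Pb (SE 0.0741, adjusted p = 1.89e-08), a 2.32-fold rise. Relative to naive cells, Pb were higher by 0.89 (adjusted p = 4.82e-07). *Slamf7* was the 1 receptor called higher in Pb than in actB.

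*Slamf6* (Ly108) binds itself and signals in T cells, NK cells and B cells. It was at 28 and 33.2 RPKM in nB, 43.1, 48.7 and 41.1 in actB DMSO, and 42.2, 40.6 and 42.1 in Pb DMSO. The cultured groups overlapped each other and lay above nB. Activation raised *Slamf6* by 0.53 (SE 0.0904, adjusted p = 0.00015), and the difference from actB to Pb was -0.09 with a 95% interval of -0.262 to 0.0901 (adjusted p = 0.361). Its activation step was the 1 rise among the 6 receptors.

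*Cd48* was at 125 and 146 RPKM in nB, 131, 120 and 125 in actB DMSO, and 137, 126 and 138 in Pb DMSO. The groups overlapped in each comparison. The 95% interval of the log2 fold change was -0.27 to 0.0418 from nB to actB (adjusted p = 0.162) and -0.0429 to 0.236 from actB to Pb (adjusted p = 0.197). These intervals hold for the scaling used and do not show that the level was equal. Quantile normalization with limma gave -0.28 for actB against nB (adjusted p = 0.0015), outside the first interval. It also called *Cd48* lower in Pb than in nB (-0.21, adjusted p = 0.00889). The processing bore on *Cd48*: it was called lower in actB than in nB by 7 of 20 alternative settings and higher in Pb than in actB by 6 of 22. With the replicate block in the cultured libraries the latter had an adjusted p of 0.0443, and with the block and nB as number 2 the former had one of 0.047. Scaling by the median of all genes gave 0.00801 and 0.0218, and leaving out the merged nB library gave 0.0234 for actB against nB.

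**Figure D2:**
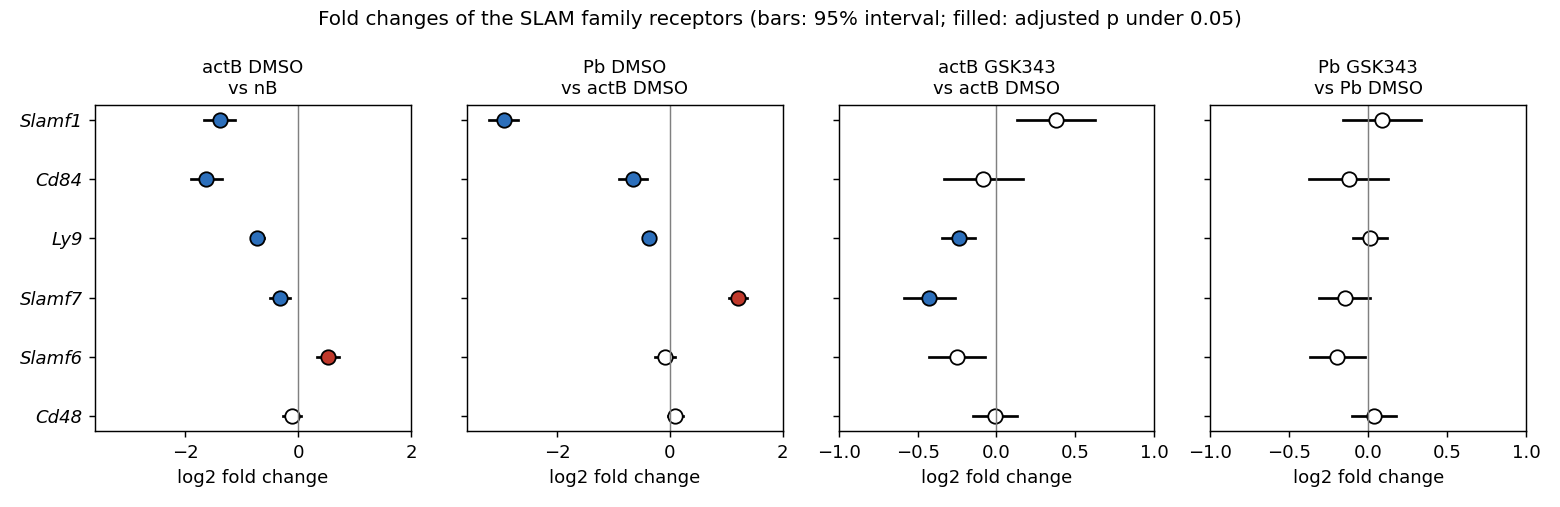
Log2 fold change (x axis) of each receptor in 4 comparisons, with 95% intervals as bars; filled points passed the test (red higher, blue lower) and open points did not. The left pair of panels runs from -3.6 to 2 and the right pair from -1 to 1, and *Slamf1* and *Slamf7* moved in opposite directions from actB to Pb.

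In counts, 5 of 6 receptors were called between nB and actB, 1 higher and 4 lower, where 77.2% of all genes tested were called, 40.9% higher and 36.3% lower. Between actB and Pb DMSO 4 of 6 were called, 1 higher and 3 lower, against 69.7% of all genes, 27.3% higher and 42.4% lower, and between nB and Pb DMSO 5 of 6, against 80.6%. The shares called were thus near those of all genes. The libraries of the groups did not overlap for the same 5, 4 and 5 receptors, and for 83.4%, 71.9% and 86.9% of all genes. The median log2 fold change of the 6 was -0.53, -0.23 and -0.56 in these comparisons, and that of all genes 0.053, -0.12 and -0.022. Scaling by the median of all genes shifts the actB to Pb values up by 0.111, which turned the small difference of *Slamf6* from -0.09 to 0.025 and left the direction of the other 5 as it was. It moved the split of all genes called in that comparison from 3086 higher and 4791 lower to 3813 and 3899. These comparisons share samples (actB DMSO in the first pair, nB and Pb in the third), so their counts are not independent.

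The 6 genes summed to 361.5 ± 16.1 RPKM in nB (SD, n = 2), to 277.7 ± 5.69 in actB DMSO and to 291.6 ± 6.63 in Pb DMSO (SD, n = 3 each). *Cd48* made up 37.5% ± 2.31 of this sum in nB, 45% ± 1.84 in actB DMSO and 45.8% ± 1.24 in Pb DMSO. The share of *Slamf7* was 8.79% ± 0.276, 9.1% ± 0.588 and 20.2% ± 1.1 in the same groups, and that of *Slamf6* 8.45% ± 0.633, 16% ± 1.31 and 14.3% ± 0.0377. In Pb the transcripts per length of *Slamf7* thus exceeded those of *Ly9*, which they did not in nB or actB.

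The order of the levels changed with it. In nB it ran *Cd48*, *Ly9*, *Cd84*, *Slamf7*, *Slamf6*, *Slamf1*, in which *Slamf7* (30.1 and 33.5 RPKM) and *Slamf6* (28 and 33.2) overlapped. In actB DMSO it ran *Cd48*, *Ly9*, *Slamf6*, *Slamf7*, *Cd84*, *Slamf1*, with no overlap between neighbours. In Pb DMSO it ran *Cd48*, *Slamf7*, *Ly9*, *Slamf6*, *Cd84*, *Slamf1*, again with no overlap.

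The next comparison asked how inhibition of EZH2 bore on the receptors in activated B cells. GSK343 lowered *Slamf7* and *Ly9* there, and no receptor was called higher. *Slamf7* was at 24.9, 27.3 and 23.7 RPKM with DMSO and at 17, 20.2 and 19.2 with GSK343, which is -0.43 as a log2 fold change (SE 0.0741, adjusted p = 0.00396). The groups did not overlap, and the ratio within each replicate number was -0.544, -0.429 and -0.304. The call was not kept when the model held the compared groups alone (adjusted p = 0.0585). *Ly9* went from 65.3, 62.4 and 62.3 RPKM to 53.5, 53.3 and 54, a log2 fold change of -0.24 (SE 0.0482, adjusted p = 0.00886), again with no overlap.

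*Slamf1* and *Slamf6* lay near the threshold. *Slamf1* was at 9.55, 9.65 and 9.19 RPKM with GSK343, above each DMSO library (log2 fold change 0.38, SE 0.114, adjusted p = 0.0563). *Slamf6* was at 33.4, 40.1 and 38.1, below each DMSO library (log2 fold change -0.25, SE 0.0809, adjusted p = 0.0701). Both were called once the replicate number was a block in the 12 cultured libraries (adjusted p = 0.0423 for *Slamf1* and 0.0294 for *Slamf6*). edgeR on the recovered reads also called both, with TMM, RLE or the block, but without a filter on low values it called *Slamf6* (adjusted p = 0.0295) and not *Slamf1* (0.075). *Cd84* (-0.083, 95% interval -0.333 to 0.167) and *Cd48* (-0.0071, 95% interval -0.147 to 0.132) overlapped between the groups.

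Thus 2 of 6 receptors were called in actB, both lower, where 10.4% of all genes were called, 8.2% higher and 2.16% lower. With the replicate block in the cultured libraries 4 of 6 were called, against 21% of all genes. The DMSO and GSK343 libraries did not overlap for 4 of the 6, and for 25.9% of all genes. Of the genes called, 926 were higher and 244 lower, a split that became 690 and 370 with scaling by the median of all genes. The median log2 fold change of the 6 receptors was -0.16 and that of all genes 0.028. Markers of other cell states moved in the same comparison. Of the 5 plasma cell markers 2 were called higher, with a summed level of 485 to 522 RPKM with DMSO and 549 to 669 with GSK343, and 2 of the 7 myeloid markers tested were called higher. Of the 7 B cell markers 1 was called lower, with summed levels of 1730 to 1970 and 1650 to 1820 RPKM. The part of these markers in the change of the receptors was not tested.

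In plasmablasts none of the 6 receptors was called for GSK343 by limma with all groups in the model, where 12.9% of all genes were, and 1 of the 6 had an unadjusted p under 0.05. That receptor was *Slamf6*, at 42.2, 40.6 and 42.1 RPKM with DMSO and 36.7, 36.6 and 35.7 with GSK343, with no overlap (log2 fold change -0.20, SE 0.0809, adjusted p = 0.143). It was called when the model held the compared groups alone (adjusted p = 0.022). edgeR called none of the 6 without the block and *Slamf6* with it (adjusted p = 0.0223). *Slamf7* was at 57.6, 61 and 58 RPKM with DMSO and at 55.6, 49.9 and 53.7 with GSK343, also without overlap (log2 fold change -0.15, 95% interval -0.311 to 0.0119, adjusted p = 0.224). *Slamf1* stayed at a low level, with 0.732, 0.806 and 0.801 RPKM under GSK343 and a difference of 0.088 (95% interval -0.161 to 0.336). The Pb means with GSK343 were 7.12 ± 0.494 RPKM for *Cd84*, 49.3 ± 2.67 for *Ly9* and 137 ± 6.09 for *Cd48* (SD, n = 3), each overlapping its DMSO group. In Pb 2 of 6 receptors did not overlap, against 34.1% of all genes. Of the 7 B cell markers 4 were called lower in Pb with GSK343, with a summed level of 915 to 937 RPKM with DMSO and 751 to 884 with GSK343. Of the 5 plasma cell markers 1 was called higher and 1 lower, and of the 5 activated B cell markers 1 lower. Beside these, 565 of all 11299 genes tested were called lower and 893 (7.9%) higher. The mean of *Sdc1* was 29.7 RPKM with DMSO and 55.3 with GSK343, and that of *Irf4* 372 and 313. The part of these markers was not tested.

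**Figure D3:**
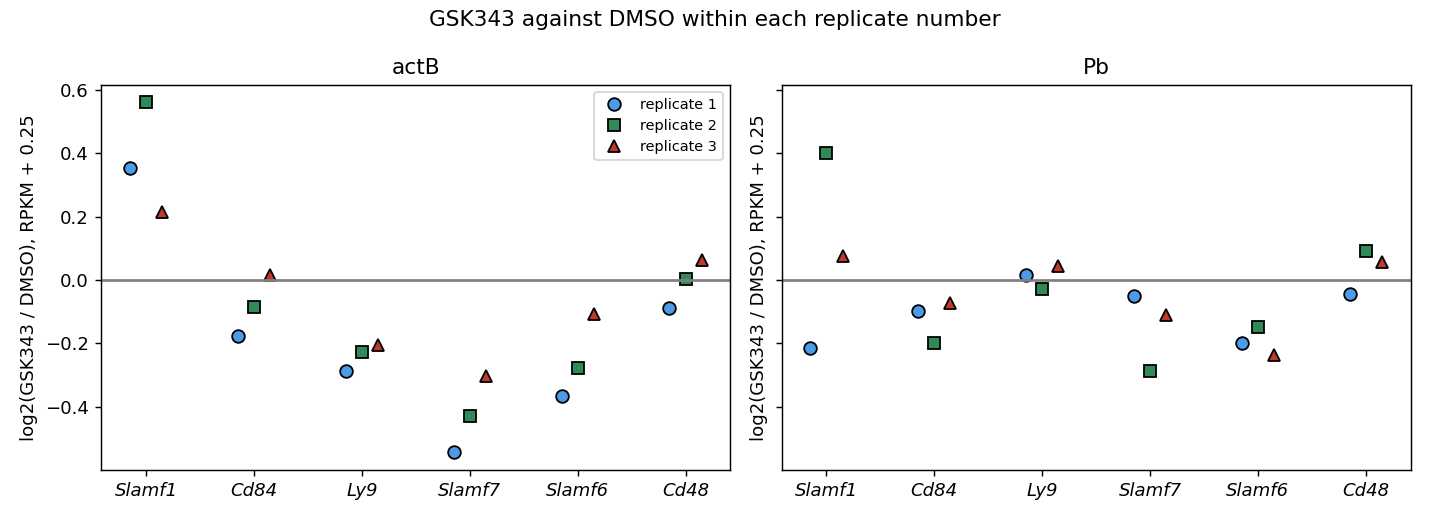
Log2 ratio of GSK343 to DMSO (y axis, RPKM + 0.25) for each receptor within replicate numbers 1 to 3, in actB (left) and Pb (right). In actB the 3 points of *Slamf7* lie between -0.544 and -0.304 and those of *Ly9* between -0.287 and -0.205, while in Pb those of *Ly9* lie between -0.028 and 0.0433.

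Whether GSK343 acted differently in Pb and actB was tested as an interaction, in which 0.248% of all genes were called. None of the 6 receptors was called by limma with all groups and no replicate block, and *Ly9* and *Slamf7* had an unadjusted p under 0.05. The difference for *Ly9* was 0.25 (95% interval 0.102 to 0.399, adjusted p = 0.183), and for *Slamf7* 0.28 (95% interval 0.048 to 0.504, adjusted p = 0.421). The replicate block moved *Ly9* to an adjusted p of 0.0571 in the 12 cultured libraries alone and of 0.0433 when the merged nB library was kept as number 1. edgeR called none of the 6 without the block, and *Ly9* with it (adjusted p = 0.0196).

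The relatives of the family were next read from the same libraries. *Cd244*, the receptor for CD48, was at 4.86 and 5.63 RPKM in nB, 1.45, 2.69 and 1.4 in actB DMSO and 0.169, 0.221 and 0.148 in Pb DMSO. Its log2 fold change was -1.44 on activation (SE 0.39, adjusted p = 0.00473) and -2.24 from actB to Pb (SE 0.349, adjusted p = 9.24e-05), while its ligand *Cd48* passed neither test. *Cd2*, the other partner of CD48, was at 202 and 203 RPKM in nB and at 64.3 to 67 in actB DMSO, a log2 fold change of -1.62 (adjusted p = 7.27e-06), and ranged from 50.8 to 81.7 in Pb DMSO.

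*Slamf8* and *Slamf9* encode short-tailed relatives that lie 1022.2 and 916.2 kb to the right of *Cd244*. *Slamf8* fell from 6.41 and 5.91 RPKM in nB to 0.207, 0.244 and 0.222 in actB DMSO (log2 fold change -3.76, adjusted p = 2.5e-10). It reached 1 RPKM in nB alone, and passed the filter because the merged nB libraries counted there as separate columns. The actB DMSO values rest on 10 to 12 reads per library, and the change was -4.88 to -2.55 over the alternatives. *Slamf9* was at 6.6 and 10.4 RPKM in nB, 4.87, 5.43 and 3.67 in actB DMSO and 34.2, 53.1 and 37.4 in Pb DMSO. Its rise from actB to Pb was 3.08 (SE 0.258, adjusted p = 3.58e-07), against 1.21 for *Slamf7*. None of the 4 relatives was called for GSK343 in actB or Pb. The summed levels of the myeloid, T cell and NK cell markers fell with those of *Cd244*, *Slamf8* and *Cd2* from nB to actB, and their part in these changes was not tested.

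Among the adaptors, *Sh2d1a*, which encodes SAP, had 13 and 18 reads in the nB libraries and at most 1 read in any cultured library, so it was not tested. *Sh2d1b2*, a second EAT-2 gene of the mouse, had at most 1 read in any library. Counts of 0 allow up to 3 reads, here 0.114 to 0.1545 RPM. *Sh2d1b1*, which encodes EAT-2, the adaptor of SLAMF7, was at 2.45 and 4.3 RPKM in nB, 0.412, 0.26 and 0.604 in actB DMSO and 1.61, 1.57 and 1.71 in Pb DMSO. It rose by 1.51 from actB to Pb (SE 0.208, adjusted p = 3.26e-05), the comparison in which *Slamf7* rose. GSK343 raised it in actB, to 1.03, 0.906 and 1.34 RPKM (log2 fold change 1.01, SE 0.208, adjusted p = 0.0103), where *Slamf7* fell. As for *Slamf7*, this call was lost with the compared groups alone (adjusted p = 0.0661). In Pb it was at 2.35, 2.82 and 2.87 RPKM with GSK343 (log2 fold change 0.64, adjusted p = 0.0655, and 0.00921 with the replicate block). These values rest on 9 to 141 reads per library, and *Sh2d1b1* and *Sh2d1b2* are near copies between which reads may be split. The part of other cells in the nB values of *Sh2d1a* and *Sh2d1b1* was not tested.

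The Src family kinases act below the adaptors. Of the 6 kinases described here, 5 fell and *Yes1* rose from nB to actB (0.88, adjusted p = 5.2e-06), where 36.3% of all genes were called lower and 40.9% higher. From actB to Pb 4 fell and 2 rose, *Yes1* (1.48, adjusted p = 2.2e-08) and *Fyn*, against 42.4% of all genes lower and 27.3% higher. *Yes1* was at 0.31 to 0.34 RPKM in nB, 0.762 to 0.849 in actB DMSO and 2.55 to 2.96 in Pb DMSO. It passed the filter on low values through the Pb libraries alone, where it was highest. Over the alternatives its rises were 0.451 to 1.31 and 1.03 to 1.85. *Fyn*, the kinase that SAP recruits, was at 26.9 and 26.1 RPKM in nB, 17.6, 15.3 and 18 in actB DMSO and 21, 20 and 21.7 in Pb DMSO. GSK343 raised it to 22.8, 22.9 and 22.9 in actB (log2 fold change 0.43, adjusted p = 0.00361) and to 39.1, 32.6 and 36.7 in Pb (log2 fold change 0.78, adjusted p = 0.000126).

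*Fgr* was at 27.3 and 29.5 RPKM in nB and fell on activation (log2 fold change -3.55, adjusted p = 8.6e-10) and from actB to Pb (-1.94, adjusted p = 1.34e-07). It went from 1.72, 2.61 and 2.33 RPKM to 5.85, 5.23 and 5.46 in actB with GSK343 (log2 fold change 1.24, adjusted p = 0.000507), and *Lyn* from 64, 69.4 and 67.6 to 81.2, 75.5 and 78 (log2 fold change 0.22, adjusted p = 0.00563). The call of *Lyn* was lost with the compared groups alone (adjusted p = 0.0815) and in edgeR without a filter (0.0743). Of these 6 kinases, GSK343 raised 3 in actB and 1 in Pb and lowered none, beside the 8.2% and 7.9% of all genes called higher. *Fgr* is also known as a kinase of myeloid cells, and the part of such cells in its fall from nB was not tested. The summed level of the 8 myeloid markers was 4.16 to 5.47 RPKM in actB DMSO and 8.33 to 14.2 in actB GSK343. Most of it was *Itgam*, with means of 4.27 and 9.95 RPKM, while the other 7 had means under 1 RPKM in both groups. *S100a8* and *S100a9* were at 0 in all 12 cultured libraries. The part of these markers in the change with GSK343 was not tested.

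**Figure D4:**
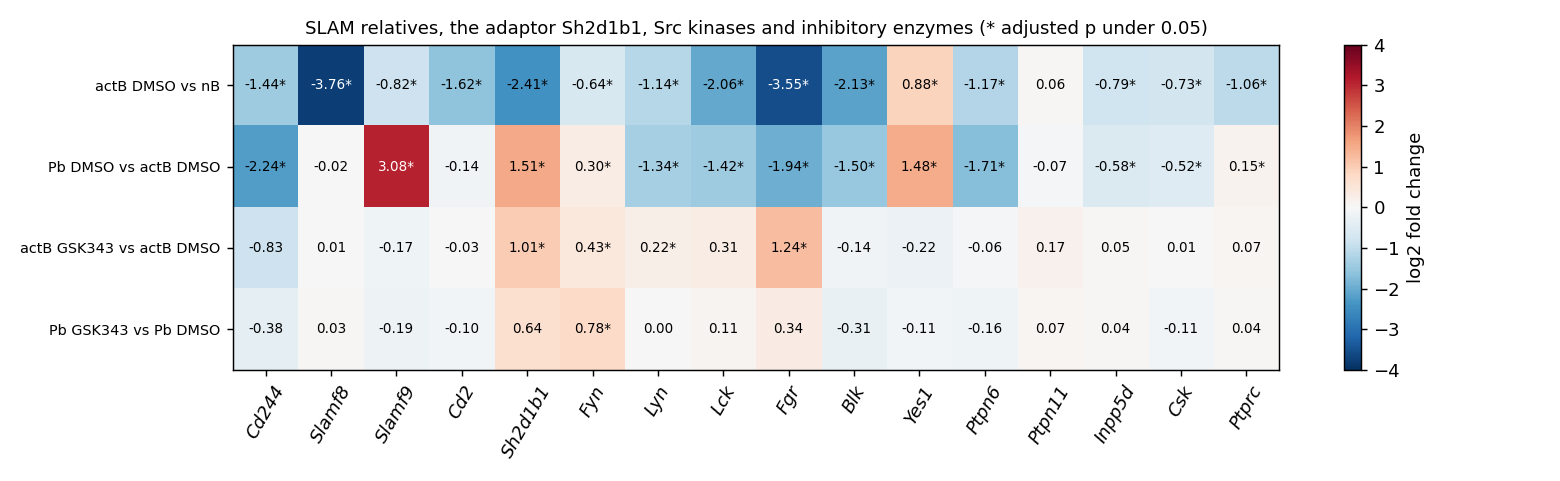
Log2 fold change (colour and printed value) of the SLAM relatives, the adaptor *Sh2d1b1*, Src family kinases and inhibitory enzymes (columns) in 4 comparisons (rows), with stars where the adjusted p was under 0.05. The rows for GSK343 hold stars for *Sh2d1b1*, *Fyn*, *Lyn* and *Fgr* in actB and for *Fyn* in Pb.

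Of the 5 inhibitory enzymes, 4 fell from nB to actB, beside 36.3% of all genes, led by *Ptpn6*, which encodes the phosphatase SHP-1 (-1.17, adjusted p = 1.57e-08), and *Ptpn11* was at 0.059 (adjusted p = 0.425). From actB to Pb 3 fell, beside 42.4% of all genes, and *Ptprc*, which encodes CD45, rose by 0.15 (adjusted p = 0.0134). *Ptpn6* was at 156 RPKM in each of the 3 actB DMSO libraries and at 49.5, 45.5 and 48.2 in Pb DMSO (log2 fold change -1.71, adjusted p = 4.07e-10). None of the 5 was called for GSK343 in actB or Pb. Of the 11 downstream signalling genes, 10 fell from nB to actB, again beside 36.3% of all genes, led by *Prkcq* (protein kinase C theta, -0.96, adjusted p = 0.00107), with *Becn1* at 0.09 (adjusted p = 0.119). From actB to Pb 5 fell and 2 rose, beside 42.4% and 27.3% of all genes. *Prkcq* rose by 1.80 (adjusted p = 2.71e-06) and the autophagy gene *Uvrag* fell by 0.72 (adjusted p = 8.65e-08). *Prkcq* passed the filter on low values through the Pb libraries alone (1.07 to 2.16 RPKM in Pb DMSO). Over the alternatives its rise was 0.987 to 2.79 and its change on activation -1.8 to -0.454. GSK343 raised *Dok1* (0.29, adjusted p = 0.0234) and *Prkcq* (0.66, adjusted p = 0.0435) and lowered *Uvrag* (-0.22, adjusted p = 0.0219) in actB. In Pb it lowered *Vav1*, an exchange factor for Rac (-0.24, adjusted p = 0.0157). Each of these calls for GSK343 was lost without 1 library or another, with an adjusted p of up to 0.0924 for *Dok1*, 0.134 for *Prkcq*, 0.0852 for *Uvrag* and 0.0734 for *Vav1*. The call of *Prkcq*, at a mean of 0.232 RPKM in actB DMSO, was also lost with a pseudocount of 1 (log2 fold change 0.294, adjusted p = 0.163).

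The genes on either side of the locus moved in both directions. From nB to actB 2 of the 17 neighbours tested rose and 4 fell, beside 40.9% and 36.3% of all genes. The largest rise was that of *Ufc1* (0.78, adjusted p = 9.9e-07) and the largest fall that of *Usp21* (-0.60, adjusted p = 5.19e-06). From actB to Pb 6 rose and 9 fell, beside 27.3% and 42.4% of all genes, with *Pvrl4* (1.18, adjusted p = 1.31e-05) and *Vangl2* (-1.62, adjusted p = 9.25e-07) at the ends. *Pvrl4* was at 0.325 to 0.437 RPKM in actB DMSO and 1.08 to 1.24 in Pb DMSO. It passed the filter on low values through the Pb libraries alone, and its rise was 0.649 to 1.76 over the alternatives. *Vangl2*, a planar polarity gene and the neighbour to the right of *Slamf6*, went from 2.26, 2.32 and 2.95 RPKM to 4.06, 4.11 and 3.99 with GSK343 in actB (log2 fold change 0.65, adjusted p = 0.0185). In Pb it went from 0.733, 0.449 and 0.776 to 1.15, 1.04 and 1.35 (log2 fold change 0.68, adjusted p = 0.0125). The other neighbours called for GSK343 were *Pea15a* in actB (0.28, adjusted p = 0.0373) and *Ncstn* in Pb (0.25, adjusted p = 0.00269). The call of *Pea15a* was lost with median scaling (adjusted p = 0.0805), quantile normalization (0.0863) and edgeR with TMM (0.0635). Without 1 library the adjusted p rose to up to 0.136 for *Pea15a* and, for *Vangl2*, to 0.0756 in actB and 0.0594 in Pb. Quantile normalization also lost the call of *Vangl2* in actB (adjusted p = 0.0625).

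**Figure D5:**
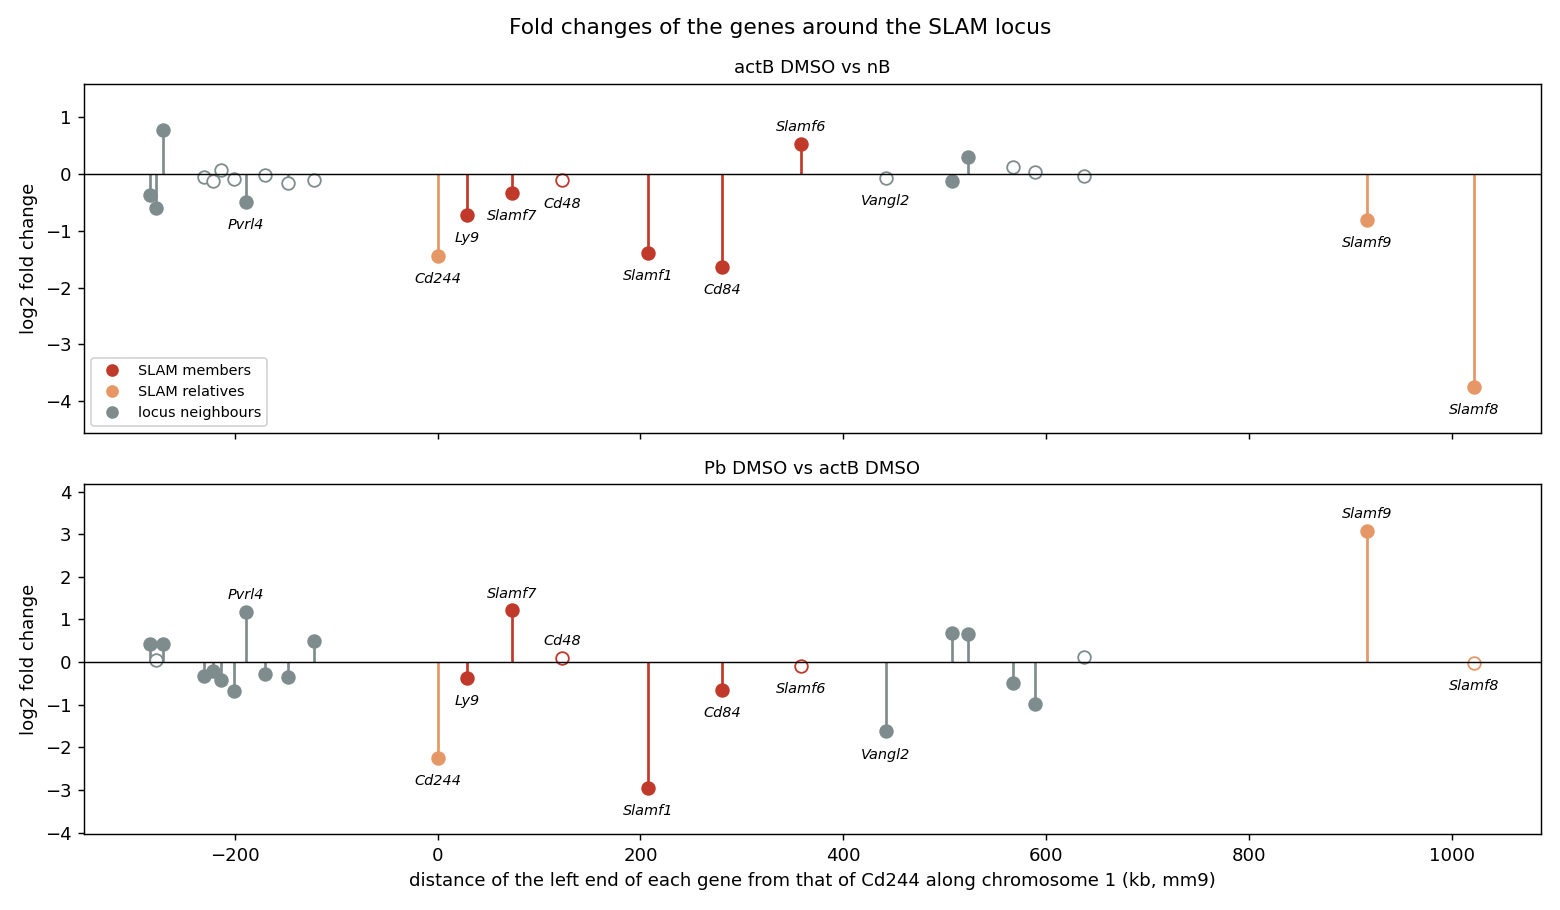
Log2 fold change (y axis) of the genes around the SLAM locus against the distance of their left end from that of *Cd244* (x axis, kb), from nB to actB (top) and from actB to Pb (bottom). Filled points passed the test; from actB to Pb *Slamf7* (1.21) and *Slamf1* (-2.95), with *Cd48* between them, stood in opposite directions.

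Over the 14 libraries, *Cd84* and *Ly9* followed each other (Pearson r = 0.95 on log2 values), as did *Slamf1* and *Cd84* (0.822), and *Slamf1* ran against *Slamf7* (-0.857). These values are descriptions that share the 5 groups and carry no test. The tested genes most like *Slamf1* were *Fam107b*, *Acap2* and *Smad2* (r = 0.997, 0.996 and 0.996). Those most like *Slamf7* were *Man2a2*, *Cdc42bpg* and *AW549877* (0.979, 0.979 and 0.978), and those most like *Cd84* were *Ikbkb*, *Lpcat2* and *Kcng1* (0.993, 0.992 and 0.992). For *Ly9* they were *Rab21*, *Foxp1* and *Ids* (0.987, 0.985 and 0.981), for *Slamf6* *Nicn1*, *Sirt4* and *Ogt* (0.961, 0.951 and 0.94), and for *Cd48* *Ripk3*, *Mgst3* and *Hist1h2bg* (0.839, 0.828 and 0.805).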

How the data were processed

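The authors mapped reads of polyA RNA to mm9 with TopHat2, counted those overlapping exons of each Entrez gene, and deposited reads per 1000000 counted (RPM) for each library in a table named for RPKM. Whether the counting used the strand is not given in the sources used here. Each column summed to 1000000, and 100% of values were whole multiples of the value of 1 read (within 0.0158 reads), which gave back the reads. RPKM was computed as RPM over the deposited gene length. Genes without a symbol, 92 in number, held at most 0.0905% of a library's reads and were left out. The nB libraries 1 and 2 gave the same reads for 79.5% of genes (chi-square per degree of freedom 0.00958, at least 3.58 for other pairs of a group) and were merged, a choice made with the data in view.

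Tested were the 11299 genes that reached 1 RPKM in 3 or more of the 15 deposited columns. The merged nB libraries counted as separate columns in this filter. log2(RPKM + 0.25) of 14 libraries was fitted with limma 3.58.1 (R 4.3.3, trend, 9 residual degrees of freedom). P-values are two-sided and adjusted by Benjamini-Hochberg over all genes tested. The labels do not state that replicates are separate cultures. The replicate numbers are those of m1 to m3 in the labels. Deviations from the group means correlated between all 18 pairs of cultured libraries with the same number (r = 0.158 to 0.713). Over 36 pairs with other numbers r was -0.603 to 0.37. Deviations within a group of 3 sum to 0, which by itself pushes the latter below 0. Pairs of number 1 with number 3 were positive (0.0737 to 0.37), and pairs of number 2 with another number negative. The check thus sets replicate 2 apart and cannot show that each number pairs the samples. Alternatives were other pseudocounts, filters and scalings, the replicate block, the compared groups alone, each library left out, and edgeR 4.0.16 on recovered reads (11146 genes, those reaching 3 RPM in 3 or more columns), of which the block in the 12 cultured libraries and the omission of replicate 2 from all cultured groups were added after the data were seen. The scripts were tested on simulated data.

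The receptors and the lists of partners, neighbours and markers were chosen with earlier results of these data known. All 6 receptors, all relatives and adaptors were named, as were genes of the other lists that were called for GSK343 or moved most in their list between the DMSO or nB groups, and the 3 genes most correlated with each receptor. Positions are from GENCODE vM1 (mm9). Promoters are from RefSeq. Intervals for reads cover counting error only. Of the listed genes, 1 was left out of the lists and counts and is not reported here.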

Additional observations from a re-analysis of the deposited data

How the results depend on the processing

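The receptors called between nB, actB and Pb kept their direction and stayed past the threshold in all alternatives run, and *Cd48*, not called, was called by some. The replicate block called 4 of 6 receptors for GSK343 in actB (2 without it), both with the merged nB library numbered 1 and in the 12 cultured libraries alone. The block with nB as number 1 called 1 in the interaction (*Ly9*). edgeR with TMM, with RLE and with TMM and the block called 4 in actB, and edgeR with the block called 1 in Pb (*Slamf6*) and 1 in the interaction. With the compared groups alone the count was 1 in actB (*Ly9*) and 1 in Pb (*Slamf6*). With nB as number 2 the block called *Slamf1* but not *Slamf6*. In limma the block called *Cd48* in Pb against actB in the 12 cultured libraries alone, and in actB against nB with nB as number 2. With nB as number 1 limma called *Cd48* in neither (adjusted p = 0.0833 and 0.16), and edgeR with the block called it in both (0.0082 and 0.0324). The block also called *Sh2d1b1* for GSK343 in Pb. Not every gene named was rerun with the block in every comparison, and among those rerun no other call changed. Over all genes, GSK343 called 1170 in actB, 1458 in Pb and 28 in the interaction, and the block in the cultured libraries 2368, 2740 and 83. The compared groups alone gave 386 in actB and 4 in the interaction. The cause of these differences was not tested.

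Shares of RPM in place of RPKM, with no division by length, gave *Cd48* 15.3%, 17.9% and 17.9% in nB, actB DMSO and Pb DMSO, *Slamf6* 21.1%, 38.7% and 34.1%, and *Slamf7* 13.4%, 13.5% and 29.4%, since *Cd48* is short.

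Each difference that turned its sign lay near 0 and was not called in either setting. Median scaling gave *Slamf6* 0.0251 and *Cd48* 0.0208 (Pb against actB and nB), and *Ptpn11* -0.0135 (actB against nB). Quantile normalization gave *Ptpn11* -0.0066 and *Becn1* -0.035 in actB against nB, and *Cd48* 0.0247 for GSK343 in actB and -0.00932 in the interaction. *Cd48* in Pb against nB was 0.0104 with the replicate block, 0.0185 with the 15 columns as deposited, and 0.0103, 0.0207 and 0.0568 in edgeR with RLE, with the block and with no filter. edgeR with RLE also gave *Ptpn11* -0.0235 and *Slamf6* 0.0236 in Pb against actB. Without replicate 2 in all cultured groups *Slamf6* was 0.00176 in Pb against actB and *Slamf1* -0.0693 for GSK343 in Pb.
With each library left out in turn, *Cd48* in Pb against nB was -0.126 without the merged nB library and ranged from -0.042 to 0.0907 without the others, where it turned without nB replicate 3 (0.0907) and without Pb DMSO replicate 2 (0.0238). A lone nB library was then assumed to vary like the other groups. For GSK343 in actB it was -0.181 to 0.0264 for *Cd84* and -0.0415 to 0.0253 for *Cd48*. In Pb it was -0.0505 to 0.205 for *Slamf1*, -0.0155 to 0.0562 for *Ly9* and -0.00674 to 0.0591 for *Cd48*, and in the interaction -0.0198 to 0.112 for *Slamf6* and -0.151 to 0.0574 for *Cd84*.

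Without 1 library the calls of some partner genes for GSK343 were lost. In actB, leaving out replicate 1 or 3 of either group lost *Dok1* (adjusted p up to 0.0924), replicate 1 or 3 of either group or GSK343 replicate 2 lost *Pea15a* (up to 0.136) and *Prkcq* (up to 0.134), DMSO replicate 1 or 2 or GSK343 replicate 1 or 3 lost *Uvrag* (up to 0.0852), and DMSO replicate 1 or GSK343 replicate 1 or 3 lost *Vangl2* (up to 0.0756). In Pb, DMSO replicate 2 or GSK343 replicate 1 or 3 lost *Vav1* (up to 0.0734), and GSK343 replicate 3 lost *Vangl2* (0.0594). *Ptprc* in Pb against actB was lost without actB DMSO replicate 1 (adjusted p = 0.0613), and *Slamf9* in actB against nB without nB replicate 3 (0.234) or actB DMSO replicate 3 (0.0725). With the compared groups alone the calls for GSK343 of *Slamf7*, *Sh2d1b1*, *Lyn*, *Dok1*, *Uvrag* and *Pea15a* in actB (adjusted p = 0.0585 to 0.152) and of *Vav1* (0.0566) and *Vangl2* (0.0523) in Pb were lost. Depth limits *Slamf1* in Pb (39 to 60 reads per library) and *Sh2d1b1*.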
